A study of Homo sapiens with 14 samples.

Results

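A set of 10 genes that the transcription factor NF-kB is known to switch on was picked by gene symbol from the 62749 human genes in the deposited tables. They are the chemokines CXCL1, CXCL2, CXCL3, CXCL8 and CCL2, the cytokines IL6, IL1A and IL1B, and the intracellular inhibitors TNFAIP3 and NFKBIA. They were read in 14 RNA sequencing libraries from tumours that UMUC3, a human bladder cancer cell line, formed in mice. The control cells are titled as carrying an sh construct, and the other cells are a knockdown of FASN, the gene of fatty acid synthase. Each kind of cell was grown before engraftment in regular medium or in medium with 10% CSM (cigarette smoke media), with 3 libraries each of control and FASN knockdown for the first and 4 each for the second. How FASN was knocked down, how CSM was made and for how long cells met it is unknown here. Nothing in the labels ties libraries to different animals, so p-values only measure how far these libraries spread, part of which may be technical.

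NF-kB is a family of paired transcription factors held in the cytoplasm by inhibitor proteins of the IkB type. Signals from receptors for tumour necrosis factor, interleukin 1 or microbial products lead to the breakdown of the inhibitor, and the freed factor binds short G- and C-rich sites near its target genes. Among the targets are secreted attractants of neutrophils and monocytes, and also the genes of its own brakes: NFKBIA encodes the inhibitor IkB-alpha, and TNFAIP3 encodes A20, an enzyme that edits ubiquitin on the receptor complexes. In tumours these chemokines can come from the cancer cells as well as from host cells, and here only human transcripts were quantified.

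The promoters of the members are shown because they carry the letters that the group is named for. The motif GGNNNTTCC, the common core of NF-kB sites, was searched on both strands in the 250 bases before each RefSeq start (GRCh38.p14). Its last letters, TTCC, are also the core of ETS sites read on the other strand, so the motifs overlap. It occurred in 7 of the 9 members with a window in the table, and in 17.1% of all 35116 windows. IL1A and IL1B had no match in this window, and CCL2 was not searched. In the stretches that follow, which end at the base before the start and run 5′ to 3′ on the strand of the gene, capitals mark GGNNNTTCC on either strand and, in CXCL8, also the AP-1 motif TGANTCA. CXCL1 (plus strand, chr4:73869273-73869392), CXCL2 (minus strand, chr4:74099196-74099315), CXCL3 (minus strand, chr4:74038690-74038809) and CXCL8 (plus strand, chr4:73740419-73740568) are the 4 chemokine genes of one cluster.
CXCL1: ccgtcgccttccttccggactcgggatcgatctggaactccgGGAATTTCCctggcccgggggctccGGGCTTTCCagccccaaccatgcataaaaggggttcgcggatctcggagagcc
CXCL2: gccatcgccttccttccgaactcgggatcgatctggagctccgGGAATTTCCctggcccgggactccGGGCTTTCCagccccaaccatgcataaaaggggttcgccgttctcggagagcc
CXCL3: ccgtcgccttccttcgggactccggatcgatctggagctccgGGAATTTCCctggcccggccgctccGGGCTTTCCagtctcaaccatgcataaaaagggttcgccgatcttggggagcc
CXCL8: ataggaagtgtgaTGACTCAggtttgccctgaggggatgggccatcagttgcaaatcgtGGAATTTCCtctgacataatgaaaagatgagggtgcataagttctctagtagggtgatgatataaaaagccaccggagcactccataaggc

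The windows of CXCL1, CXCL2 and CXCL3 shared a run of 23 bases, ctccgggaatttccctggcccgg, around the first match. The 4 CXC windows had in common only the 9 bases of that match itself, GGAATTTCC. CXCL8 alone among these 4 also held TGANTCA. Counted in the same way, that motif occurred in 6.57% of all windows and in 2 of the 9 members, CXCL8 and IL1A. The inhibitor genes are shown beside them because their transcripts turned out to vary most closely together. TNFAIP3 (plus strand, chr6:137867139-137867258) held a pair of matches on the opposite strand, and NFKBIA (minus strand, chr14:35404750-35404869) held 1 in the stretch shown and another farther upstream, 242 to 234 bases before the start.
TNFAIP3: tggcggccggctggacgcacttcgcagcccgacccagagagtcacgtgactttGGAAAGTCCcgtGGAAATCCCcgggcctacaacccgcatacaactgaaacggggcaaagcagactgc
NFKBIA: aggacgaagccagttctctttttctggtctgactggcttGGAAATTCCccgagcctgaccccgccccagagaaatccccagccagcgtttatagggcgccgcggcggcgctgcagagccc

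The summed counts per library ran from 15810287 to 45209466, and 2.64% to 25.6% of them fell on the 7SL RNAs RN7SL1 and RN7SL2. FASN, the targeted gene, stood at 571, 404 and 379 CPM (counts scaled by depth, on TMM-scaled totals) in the control libraries and at 121, 99.9 and 132 CPM in the knockdown libraries from regular medium, where it fell by 1.94 on the log2 scale (edgeR quasi-likelihood test, adjusted p = 0.0245). After CSM it stood at 456, 479, 423 and 366 CPM in the control libraries and at 220, 166, 301 and 479 CPM in those labelled FASN knockdown, so the fourth of these was as high as the controls and goes against its label. The log2 fold change there was -0.57 (SE 0.28, adjusted p = 0.288 by edgeR) and was not called. Between media, FASN in the knockdown libraries had a log2 fold change of 1.31 for CSM (SE 0.31, adjusted p = 0.568 by edgeR), also not called. These groups did not overlap, as held for 5.91% of all genes. The CSM effect in knockdown cells and the interaction thus compare libraries with unequal FASN levels. Of bladder and epithelial markers, KRT8 and KRT18 had medians of 90.2 and 148 CPM, EPCAM had 7 counts in all, and KRT20 and UPK3A had none.

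Of the 10 genes, 7 passed the filter on low counts and were tested. NFKBIA had the highest level per length, at a median of 57.8 TPM (transcript level scaled for length and depth) over the 14 libraries. CCL2 followed at 10.2 TPM, then CXCL2 at 5.26, TNFAIP3 at 4.74, CXCL3 at 4.01, CXCL1 at 3.24 and CXCL8 at 2.93 TPM. The ranges of the last 6 overlapped widely, from 0.425 to 14.9 TPM for CXCL8 and from 4.06 to 45.4 TPM for CCL2, so neighbours in this order did not differ beyond their spread.

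IL6, IL1A and IL1B, the classical inflammatory cytokines of the group, were close to absent. IL6 had 27 counts in all: replicate 2 of the control held 19, and in the control after CSM replicate 1 held 7 and replicate 4 held 1. Of the 19, Salmon gave 15 to a retained-intron transcript. IL1B had 14 counts, all from the control after CSM, where replicate 1 held 5 and replicate 2 held 9. Retained-intron transcripts held 3.71 of those in replicate 1 and all 9 in replicate 2. IL1A had 1 count, in replicate 2 of the control. None of the 7 libraries labelled FASN knockdown, 1 of which has FASN at the control level, held a count of these 3 genes. In regular medium the knockdown libraries were also shallower, with 15810287 to 31954739 counts against 36784659 to 43452910 in the control. How many other genes this low were absent from the same libraries was not counted, so no effect of the knockdown is read from this. A count of 0 allows, at 3 counts of the total, up to 0.0610 to 0.254 CPM depending on the library, and this covers counting error only. None of the 3 genes was tested. IL6 lies opposite STEAP1B and the antisense gene AC073072.1, and whether the libraries keep strand is unknown here.

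**Figure D1:**
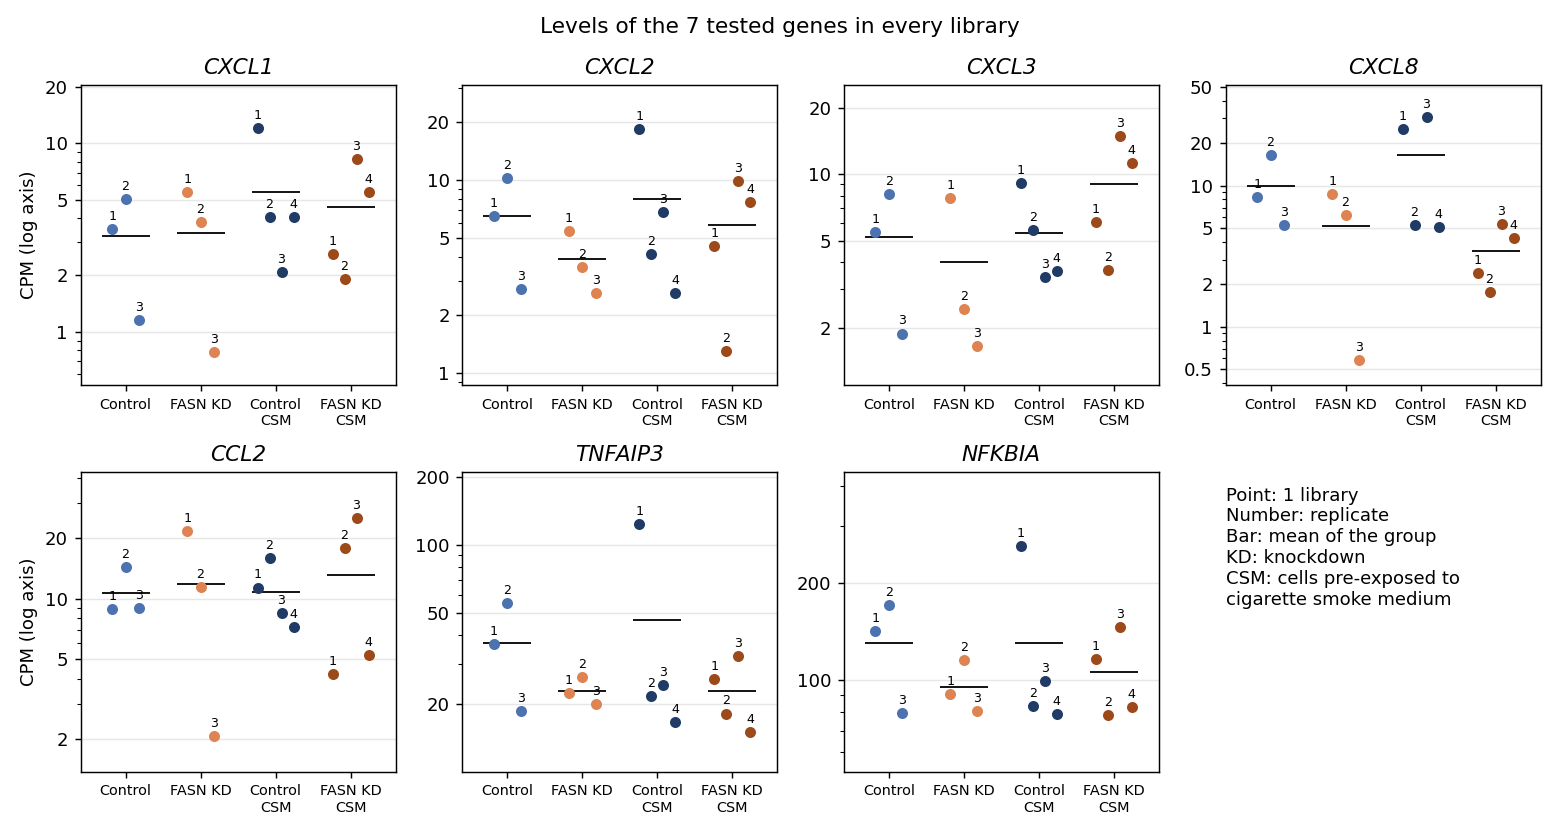
CPM on a log axis for the 7 tested genes, 1 panel per gene, with 1 point per library (the number is the replicate) and a bar at the mean of each group. The groups overlap in every panel; replicate 1 of the control after CSM stands highest for CXCL1, CXCL2, TNFAIP3 and NFKBIA, and the 4 FASN knockdown libraries after CSM reach at most 5.33 CPM for CXCL8.

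CXCL8, the main human attractant of neutrophils, varied most of the 7 genes, from 0.582 to 30.4 CPM, and was the gene with the widest gap between the groups after CSM. The control libraries from regular medium had 8.30, 16.4 and 5.26 CPM, and the knockdown libraries 8.72, 6.18 and 0.582 CPM. After CSM the control libraries had 25.1, 5.30, 30.4 and 5.08 CPM, and those labelled knockdown 2.39, 1.78, 5.33 and 4.29 CPM. The last 2 sets touch: replicates 1 and 3 of the control after CSM were far above all 4 knockdown libraries, whereas replicates 2 and 4 lay just under the highest of them. The means after CSM were 16.5 ± 13.2 CPM (SD, n = 4) for the control and 3.45 ± 1.65 CPM (SD, n = 4) for the knockdown. The log2 fold change was -2.25 with an SE of 0.73 and a 95% interval of -3.80 to -0.70, and the adjusted p was 0.128 with edgeR's quasi-likelihood test, so the difference was not called. Without the fourth knockdown library it was -2.36, and without replicate 3 of the control, in which 16.3% of the counts were 7SL RNA, -1.76 (adjusted p = 0.337). DESeq2 gave an adjusted p of 0.0613.

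In regular medium the knockdown effect on CXCL8 was -0.96 on the log2 scale (SE 0.82, adjusted p = 0.822 by edgeR's quasi-likelihood test). The test of the difference between the 2 knockdown effects gave -1.29 with an SE of 1.08 and an adjusted p of 0.945 by edgeR. The 2 effects were thus not shown to differ. On the TPM scale the difference was 0.40, beside a median over all genes of 0.57 on that scale. The effect of CSM was 0.72 (SE 0.76) in control cells and -0.57 (SE 0.76) in knockdown cells, and neither passed the test. On the TPM scale the effect in knockdown cells turned to 0.69, beside a median over all genes of 0.59 on that scale.

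CXCL1, CXCL2 and CXCL3 encode closely related ligands of the neutrophil receptor CXCR2 and are near-identical in sequence, so the assignment of reads among them is uncertain. CXCL1 had 3.50, 5.04 and 1.16 CPM in the control libraries and 5.50, 3.81 and 0.786 CPM in the knockdown libraries from regular medium. After CSM it had 12.0, 4.09, 2.07 and 4.07 CPM in the control and 2.60, 1.91, 8.31 and 5.55 CPM in the knockdown. High and low libraries were found in all 4 groups, and the groups overlapped in every comparison. The knockdown effect was 0.05 (SE 0.76) on the log2 scale in regular medium and -0.27 (SE 0.65) after CSM. Both values changed sign on the TPM scale, to -0.14 and 0.49, beside medians over all genes of -0.14 and 0.39.

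CXCL2 had 6.49, 10.3 and 2.71 CPM in the control and 5.47, 3.56 and 2.59 CPM in the knockdown from regular medium. After CSM it had 18.2, 4.15, 6.78 and 2.60 CPM in the control and 4.52, 1.30, 9.90 and 7.68 CPM in the knockdown. Replicate 1 of the control after CSM was the highest of all 14 libraries. The knockdown effect was -0.74 (SE 0.73) in regular medium and -0.44 (SE 0.62) after CSM on the log2 scale. The second value turned to 0.42 without that highest library, and to 0.58 on the TPM scale, where the median over all genes was 0.39.

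Summed over transcripts, the highest levels of CXCL3 came from 2 libraries labelled FASN knockdown after CSM. Of these, 1 is the fourth, with FASN as high as in the controls. It had 5.45, 8.14 and 1.89 CPM in the control and 7.81, 2.46 and 1.66 CPM in the knockdown from regular medium. After CSM the control libraries had 9.08, 5.56, 3.40 and 3.63 CPM and the knockdown libraries 6.06, 3.69, 14.9 and 11.3 CPM. Replicates 3 and 4 of the knockdown after CSM thus exceeded every other library in the sum over transcripts, while the other 2 lay among the controls. On the coding transcript alone, replicates 3 and 4 held 167 and 224 unscaled counts, and replicate 1 of the control after CSM held 203. The remainder fell on models without a defined coding sequence. In these libraries 3 counts correspond to 0.0842, 0.0610 and 0.0867 CPM. Scaled in this way, the control library was the highest of them on the coding transcript. The knockdown effect after CSM was 0.73 on the log2 scale (SE 0.56, adjusted p = 0.485 by edgeR), and the effect of CSM in knockdown cells was 1.17 (SE 0.62, adjusted p = 0.789 by edgeR). Neither was called.

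Within a library the balance of CXCL8 to CXCL3 does not depend on the scaling between libraries, and it is given here as a description chosen after the values were seen. The ratio of their CPM was 1.52, 2.02 and 2.78 in the control and 1.12, 2.52 and 0.351 in the knockdown from regular medium. After CSM it was 2.76, 0.953, 8.93 and 1.40 in the control and 0.395, 0.481, 0.357 and 0.380 in the knockdown. The 4 knockdown libraries after CSM lay close together, with a mean log2 ratio of -1.32 ± 0.19 (SD, n = 4), although their CXCL3 levels ranged from 3.69 to 14.9 CPM. The 4 control libraries after CSM had 1.26 ± 1.42 (SD, n = 4) and all lay higher. Replicate 3 of the knockdown from regular medium had a ratio as low, on 20 counts of CXCL8 and 57 of CXCL3. The fourth knockdown library after CSM, at 0.380, has FASN as high as the controls. 7SL RNA held 2.73%, 11.3%, 2.64% and 2.67% of the counts in the knockdown after CSM, against 4.20% to 16.3% in the control after CSM. Mitochondrially encoded genes held 1.76%, 0.925%, 2.74% and 2.28%, against 0.328% to 1.35%. In replicate 3 of the knockdown from regular medium the shares were 3.89% and 2.99%. The part of these differences in the ratio was not tested. The separation of the ratios depends on the transcripts counted. On the main coding transcripts of CXCL8 and CXCL3, replicate 1 of the knockdown after CSM held 74.9 and 45.1 counts. Replicate 2 of the control after CSM held 155 and 118, a lower ratio, so the groups overlapped there.

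The 4 CXC genes span 358.8 kb of chromosome 4, from 73740506 to 74099293 in GENCODE v29 on GRCh38. The chemokine genes between them were nearly silent. CXCL6, which also acts on CXCR2, had a median of 0.488 CPM, CXCL5 had 3 counts over all libraries, PPBP and PF4 had 1 each, and PF4V1 had none. Of the 9 chemokine genes named here, 4 thus had a median above 1 CPM, all of them members.

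CCL2, which attracts monocytes through the receptor CCR2, lies outside that cluster. It had 8.86, 14.3 and 9.00 CPM in the control and 21.8, 11.4 and 2.07 CPM in the knockdown from regular medium. After CSM it had 11.4, 16.0, 8.45 and 7.22 CPM in the control and 4.20, 17.95, 25.2 and 5.26 CPM in the knockdown. The spread within both knockdown groups enclosed the controls. Its knockdown effect was 0.13 (SE 0.70) in regular medium and 0.29 (SE 0.60) after CSM on the log2 scale. The first turned to -0.59 on the TPM scale, where the median over all genes was -0.14. Its CSM effects were 0.00 (SE 0.65) in control cells and 0.16 (SE 0.65) in knockdown cells.

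TNFAIP3 and NFKBIA, the brakes of the pathway, were the most abundant of the 7 genes by counts, and 1 library set their range. TNFAIP3 had 36.6, 55.4 and 18.5 CPM in the control and 22.2, 26.2 and 20.0 CPM in the knockdown from regular medium. After CSM it had 124, 21.5, 24.2 and 16.6 CPM in the control and 25.6, 18.1, 32.6 and 15.02 CPM in the knockdown. Apart from replicate 1 of the control after CSM, all libraries after CSM lay between 15.02 and 32.6 CPM, and the groups overlapped.

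The knockdown effect on TNFAIP3 after CSM was -1.03 on the log2 scale (SE 0.54, adjusted p = 0.314 by edgeR). It turned to 0.16 without replicate 1 of the control and to 0.34 on the TPM scale, where the median over all genes was 0.39. In regular medium the effect was -0.70 (SE 0.62, adjusted p = 0.837 by edgeR). An antisense gene, AL357060.1, overlaps TNFAIP3, and reads from the 2 cannot be told apart without strand.

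NFKBIA had 143, 171 and 79.4 CPM in the control and 90.6, 116 and 80.2 CPM in the knockdown from regular medium. After CSM it had 260, 83.6, 99.97 and 78.6 CPM in the control and 117, 78.3, 147 and 82.9 CPM in the knockdown. Of the 14 libraries, 10 lay between 78.3 and 117 CPM, and the same library as for TNFAIP3 was far above. The knockdown effect was -0.46 (SE 0.42) in regular medium and -0.30 (SE 0.37) after CSM on the log2 scale. The second turned to 0.31 without that library and to 0.50 on the TPM scale, where the median over all genes was 0.39.

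Across the group, none of the 7 tested genes was called in any of the 5 comparisons at an adjusted p below 0.05 with edgeR's quasi-likelihood test, and none separated 2 groups without overlap. The knockdown in regular medium had 0.204% of 22560 genes called, and the knockdown after CSM 1.17%. The CSM effect in control cells, that in knockdown cells and the interaction had 0% called, with 316, 1504 and 1178 genes at an unadjusted p below 0.05, and DESeq2 called 6, 52 and 7 genes there. At an unadjusted p below 0.05 only CXCL8 in the knockdown after CSM passed, in a comparison where 18.5% of all genes did. That share was 9.08% for the knockdown in regular medium, 1.4% and 6.67% for CSM in control and knockdown cells, and 5.22% for the interaction. The groups did not overlap for 11.8%, 16.2%, 4.07% and 5.91% of all genes in the first 4 comparisons, against 0 of the 7 members in each. In bulk tumours, fewer cells of a kind and less RNA per cell cannot be told apart.

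**Figure D2:**
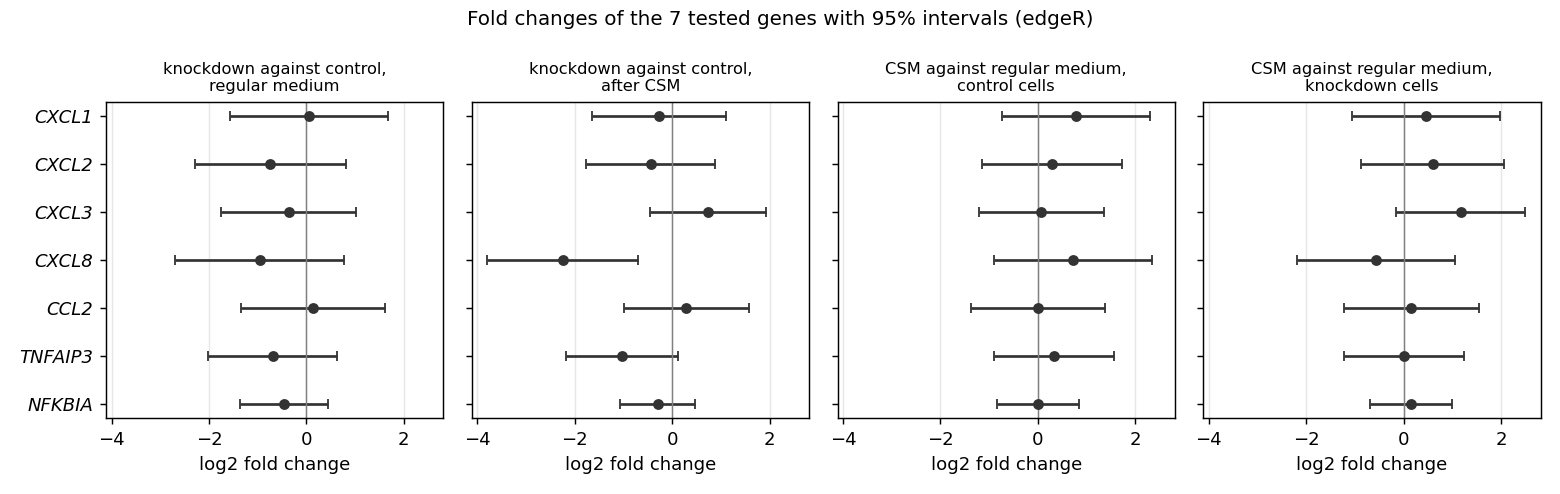
Log2 fold changes (points) of the 7 tested genes with 95% intervals (bars) in 4 comparisons, from edgeR; the vertical line is 0. Of the 28 intervals, that of CXCL8 for the knockdown after CSM, -3.80 to -0.70, is the one that leaves out 0, and its adjusted p is 0.128.

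The median log2 fold change of the 7 genes was -0.46 for the knockdown in regular medium (5 of 7 below 0) and -0.30 after CSM (5 of 7 below 0), against medians of 0.02 and 0.01 over all genes tested. For CSM it was 0.29 in control cells and 0.16 in knockdown cells, with 6 of 7 above 0 in both, against 0.01 and -0.02 over all genes. The first pair shares no library, but each knockdown comparison shares its libraries with the CSM comparisons. The signs of the medians rest in part on single libraries: 4 of the 5 negative values after CSM, those of CXCL1, CXCL2, TNFAIP3 and NFKBIA, turned positive without replicate 1 of the control after CSM, and the same 4 were positive on the TPM scale, beside a median over all genes of 0.39. Without that control library the median after CSM was 0.34, with 6 of 7 above 0. For CSM in control cells it was then -0.31, with 2 of 7 above 0: CXCL1 had 0.06, CXCL2 -0.54, CXCL3 -0.31, CXCL8 0.43, CCL2 -0.03, TNFAIP3 -0.84 and NFKBIA -0.60. Without the fourth library labelled knockdown, the one with FASN as high as in the controls, the values after CSM kept their signs: CXCL1 had -0.37, CXCL2 -0.59, CXCL3 0.61, CXCL8 -2.36, CCL2 0.56, TNFAIP3 -0.88 and NFKBIA -0.20.

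All 21 pairs of the 7 genes had a positive Pearson's r of log2 CPM over the 14 libraries, from 0.20 to 0.97 with a median of 0.58. Over all pairs of 11860 protein-coding genes with a mean of at least 2 CPM, the median r was 0.051 and 53.7% of pairs were positive. An r above 0.58 was found for 13.5% of these pairs, and for 16.7% of them with deviations from the group means. After Benjamini-Hochberg adjustment over 42 relations, 8 pairs had an adjusted permutation p below 0.05 for r and 9 for Spearman's rho. The share of all gene pairs that would pass in this way was not computed. The points share a scaling factor per library, and the libraries differ in depth and 7SL content.

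The closest pair was that of the brakes. TNFAIP3 and NFKBIA had r = 0.97 and rho = 0.94 over 14 libraries, each with a permutation p of 1e-05, the smallest that these permutations can give, and an adjusted p of 0.00021. Without the 2 libraries farthest from the median of TNFAIP3, r was 0.93, and for deviations from the group means it was 0.98. Leaving out any single library kept it between 0.95 and 0.97.

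**Figure D3:**
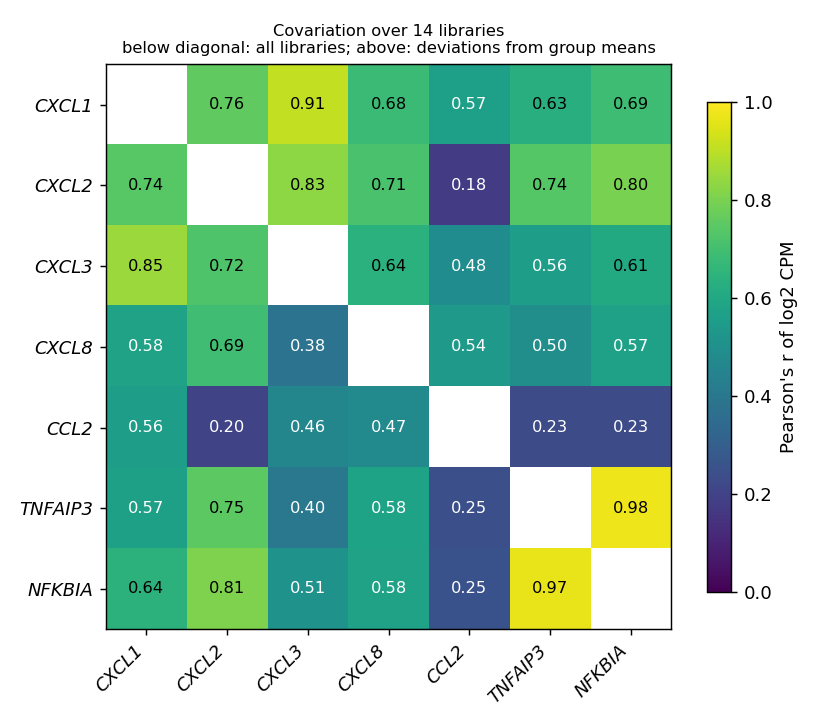
Pearson's r of log2 CPM for all pairs of the 7 tested genes over 14 libraries, below the diagonal over all libraries and above it for deviations from the group means; colour runs from 0 to 1. TNFAIP3 with NFKBIA is the highest, at 0.97 over all libraries and 0.98 within groups, and CCL2 has the lowest values, down to 0.20 and 0.18.

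CXCL1 and CXCL3 were next, with r = 0.85 and rho = 0.87 over 14 libraries (permutation test, adjusted p = 0.00137 for both). Without the 2 farthest libraries r was 0.72, and within groups it was 0.91. How far reads shared between them enter this pair was not tested. CXCL2 had r = 0.81 with NFKBIA, 0.75 with TNFAIP3, 0.74 with CXCL1, 0.72 with CXCL3 and 0.69 with CXCL8, all past the adjusted threshold. CXCL1 and NFKBIA had r = 0.64 (permutation test, adjusted p = 0.0336). No pair with CCL2 passed, and its r ranged from 0.20 with CXCL2 to 0.56 with CXCL1. CXCL8 and CXCL3 had r = 0.38 over all libraries and 0.64 within groups. Without replicate 1 of the control after CSM, 4 of the pairs passed in place of 8.

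**Figure D4:**
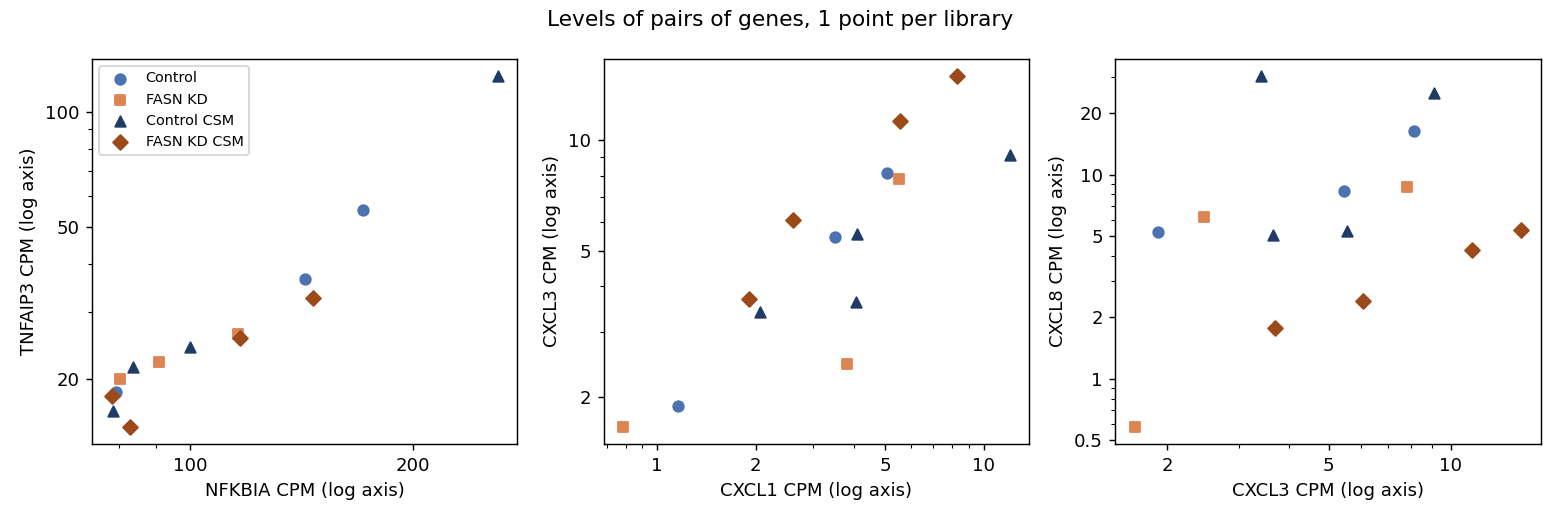
CPM of TNFAIP3 against NFKBIA, CXCL3 against CXCL1 and CXCL8 against CXCL3 on log axes, 1 point per library with colour and shape by group. The first pair forms a single band (r = 0.97), the second a looser one (r = 0.85), and in the third the 4 FASN knockdown libraries after CSM lie below the others at a given CXCL3 level, apart from 1 knockdown library from regular medium.

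Single libraries carried much of this variation. Replicate 1 of the control after CSM was the highest of all for 4 of the 7 genes and among the top 3 for 6, and replicate 3 of the knockdown from regular medium was the lowest for 4. The first of these also had the highest mean log2 CPM of the 17 immediate early and AP-1 genes, 6.41 against 4.07 to 5.72 in the other libraries. The second was at 5.69 for the same list, rank 3 of 14. The part of these differences in the results was not tested.

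Among 11859 protein-coding genes with a mean of at least 2 CPM, NFKBIA was the gene most like TNFAIP3 over the 14 libraries, followed by IRF2BP2 (r = 0.92), MXD1 (0.91), SMOX (0.90) and DUSP1 (0.89). Those most like NFKBIA were TNFAIP3, IRF2BP2 (0.91), ARRDC3 (0.89), MXD1 (0.89) and SLC2A3 (0.87). CXCL2 stood at rank 14 for NFKBIA and at rank 53 for TNFAIP3. The pattern of CXCL8 was another one: NAMPT (0.94), ATP1B1 (0.93), FAM210A (0.92), MTHFD1L (0.92) and PYGL (0.91) were closest, and the nearest other member, CXCL2, stood at rank 1012. These correlations describe genes picked as the highest of many, and carry no test.

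Of the 19 receptors listed upstream of NF-kB, 7 had a median under 1 CPM, among them TLR2 at 0.284 and TLR4 at 0.057 CPM. TNFRSF1A, the main receptor for tumour necrosis factor, had a median of 133 CPM, and the NF-kB subunits NFKB2, RELA, NFKB1, RELB and REL had 133, 94.0, 64.3, 62.5 and 23.1 CPM. The chemokine receptors of the secreted members were mostly missing from the human transcripts: ACKR1 had 0 counts, CXCR1 had 3 and CCR2 had 5 over all libraries, and CXCR2 had a median of 0.162 CPM. Receptors of the cytokines were present: IL6ST, the shared signalling chain of the IL6 receptor, had a median of 160 CPM and IL6R 4.43 CPM. For interleukin 1, IL1R1 had 12.2 CPM and IL1RAP 5.14 CPM.

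None of the pathway lists had a called member in any comparison (edgeR, adjusted p below 0.05). Of 22 tested intracellular and surface NF-kB targets, 19 had a negative log2 fold change for the knockdown in regular medium and 18 after CSM, with medians of -0.27 and -0.30. The smallest p in both was that of TNIP3, which binds A20: it stood at 3.02 ± 0.34 CPM (SD, n = 3) in the control against 0.698 ± 0.516 (SD, n = 3) in the knockdown from regular medium, and at 3.05 ± 0.60 (SD, n = 4) against 0.768 ± 0.465 (SD, n = 4) after CSM. Its groups did not overlap in either medium, as held for 11.8% and 16.2% of all genes. Its log2 fold changes were -2.18 (adjusted p = 0.279 by edgeR) and -1.98 (adjusted p = 0.0846 by edgeR). TNFAIP2, another target, had -1.41 and -1.35, with adjusted p of 0.426 and 0.140 by edgeR. Without replicate 1 of the control after CSM, 14 of the 22 were below 0 after CSM, with a median of -0.17.

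The 14 tested secreted targets outside the group were split, with medians of 0.22 in regular medium and 0.06 after CSM. The cytokine IL15 had -1.02 and -1.08 (adjusted p = 0.442 and 0.118 by edgeR). Its groups did not overlap in either medium, as held for 11.8% and 16.2% of all genes. The protease gene PLAU had 0.77 in regular medium (adjusted p = 0.498 by edgeR), and the cytokine IL32 had -1.38 after CSM (adjusted p = 0.175 by edgeR). Of 28 subunits and kinases, 20 and 14 were below 0, with medians of -0.11 and -0.03, and of 17 upstream receptors 9 and 9. The subunit REL had -0.60 and OTULIN, an enzyme that removes linear ubiquitin, -0.55 in regular medium (adjusted p = 0.485 and 0.471 by edgeR). After CSM the adaptor TAB2 had -0.60 and the subunit NFKB1 -0.49 (adjusted p = 0.147 and 0.236 by edgeR). Of the receptors, TNFRSF11A had 0.38 and IL1R1 -0.50 in regular medium (adjusted p = 0.653 and 0.660 by edgeR), and LTBR had -0.45 after CSM (adjusted p = 0.362 by edgeR). TNFRSF1A after CSM had -0.61 (SE 0.17, adjusted p = 0.0813 by edgeR), from 160 ± 22.2 CPM (SD, n = 4) to 104 ± 11.3 CPM (SD, n = 4). Of the 9 factors of cytokine mRNA decay all had negative values after CSM, with a median of -0.24, and ZFP36L1 and ZFP36, which bind AU-rich elements, had -0.60 and -0.85 (adjusted p = 0.263 and 0.387 by edgeR). RC3H2 and RC3H1 had -0.28 and -0.24 in regular medium (adjusted p = 0.782 and 0.785 by edgeR). The receptors and signalling genes of the secreted members had medians of -0.15 and -0.02. Among them IL6R had -0.48 and CXCR2 1.13 in regular medium (adjusted p = 0.828 and 0.862 by edgeR), and the kinase JAK1 had -0.46 and CXCR2 1.64 after CSM (adjusted p = 0.201 and 0.375 by edgeR).

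The immediate early and AP-1 genes, which tissue handling can also induce, had a median knockdown effect of -0.70 after CSM, with 16 of 17 below 0 and none called. At an unadjusted p below 0.05, 7 of the 17 passed, in a comparison where 18.5% of all genes did. DUSP1 had -1.52 and JUNB -1.35 (adjusted p = 0.170 and 0.190 by edgeR). Replicate 1 of the control after CSM, with its mean log2 CPM of 6.41 for this list, bears on these values: without it the median was -0.28, with 9 of the 16 genes then tested below 0 and 0 at an unadjusted p below 0.05. In regular medium MYC had -1.03 and EGR3 1.68 (adjusted p = 0.376 and 0.614 by edgeR). The part of these genes in the values of the cytokine targets was not tested.

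Markers of host-type cells were read as human transcripts and are no measure of mouse cells. The processing notes name no step that sets mouse reads apart. How far mouse reads fell on human transcripts, of these markers or of the chemokines, was not tested. Of 17 myeloid and leukocyte markers, 3 had a median of at least 1 CPM, TYROBP had 0 counts, and the summed level was 62.9 to 112 CPM in the control, 70.8 to 94.2 in the knockdown, 69.4 to 106 in the control after CSM and 46.3 to 109 in the knockdown after CSM, of which CD68 alone had a median of 78.5 CPM. None of the 8 endothelial markers reached a median of 1 CPM, and their sums ranged from 1.49 to 3.17 CPM. The 9 fibroblast markers summed to 23.8 to 27.6 CPM in the control against 7.51 to 14.2 in the knockdown from regular medium, and to 12.8 to 31.96 against 8.68 to 14.4 CPM after CSM. Most of that sum was THY1 and PDGFRB, at medians of 8.95 and 2.41 CPM, while FAP and LUM had medians of 0. THY1, a surface protein of fibroblasts that some tumour cells also carry, fell by 1.64 on the log2 scale after CSM (edgeR, adjusted p = 0.0409), and had -1.27 in regular medium (adjusted p = 0.332 by edgeR). PDGFRB had -2.10 in regular medium and -1.47 after CSM (adjusted p = 0.164 and 0.103 by edgeR). COL1A1, a collagen gene picked after its values were seen, as was the second value of PDGFRB, had the other sign after CSM, with 1.69 ± 0.76 CPM (SD, n = 4) in the control and 3.05 ± 1.00 CPM (SD, n = 4) in the knockdown, a log2 fold change of 0.84 (adjusted p = 0.265 by edgeR). LYZ had 1.27 and 0.83 and S100A9 -2.84 and -2.62 in the 2 knockdown comparisons (adjusted p = 0.426, 0.292, 0.685 and 0.298 by edgeR). VWF had 0.59 and 0.58 and PECAM1 0.50 and -0.61 (adjusted p = 0.890, 0.595, 0.905 and 0.543 by edgeR). Of epithelial genes, KRT8 had 0.51 and KRT5 2.42 in regular medium (adjusted p = 0.473 and 0.495 by edgeR), and KRT18 had -0.79 and FOXA1 0.62 after CSM (adjusted p = 0.0537 and 0.432 by edgeR). The part of these cells in the levels of the chemokines was not tested.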

How the data were processed

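For every library the authors deposited Salmon output on 252048 human transcripts: expected counts, which are unnormalised estimates of reads, and TPM, normalised for length and depth. The submitters' processing notes name FastQC, cutadapt, Salmon and GRCh38 without versions or settings. Expected counts were summed by gene symbol and identifier and rounded. One model with 4 group means was fitted to all 14 libraries in edgeR 4.0.16 (R 4.3.3), with TMM and filterByExpr defaults (minimum count 10, minimum total 15), which kept 22560 genes. The quasi-likelihood test was adjusted by Benjamini-Hochberg over all of them. CPM are on TMM-scaled totals, and log2 CPM used a prior count of 2. Correlations had two-sided tests with 100000 permutations in scipy 1.17.1. DESeq2 1.42.0, other factors, no filter, the replicate number as a block, libraries left out and limma 3.58.1 on log2(TPM + 1) were alternatives. The pathway lists without replicate 1 of the control after CSM, and the correlations with each library left out, were added after seeing the data. The tests were tried on simulated data. Positions are from GENCODE v29, promoters and their starts from RefSeq (GRCh38.p14). The genes named are the 10 members in every comparison, then called members of each pathway list or the 2 with the smallest p (printed for the 2 knockdown comparisons only), FASN, and the 5 genes most like CXCL8, TNFAIP3 and NFKBIA. The members and the lists were chosen with earlier results of these data known.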

Additional observations from a re-analysis of the deposited data

Results flagged for a closer look

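Of 16 groups of 4 libraries examined for a single distant value, 3 had one. The cut-off would flag about 1 in 20 groups of independent, normally spread values, and CPM need not meet this. TNFAIP3 and NFKBIA also vary together (r = 0.97), so the 3 are not independent and no excess is read from them. All 3 were the highest value of replicate 1 of the control after CSM. TNFAIP3 stood there at 123.8 CPM (4283 counts), where the other replicates had 16.6 to 24.2 CPM. NFKBIA stood at 260.4 CPM (9008 counts), where the others had 78.6 to 99.97 CPM. IL6 stood at 0.2024 CPM, which is 7 counts, beside 1 count in replicate 4 and none in replicates 2 and 3.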

How the results depend on the processing

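No member was called in the other settings run, except CXCL8 (adjusted p = 2.58e-08) and TNFAIP3 (adjusted p = 0.00421) after CSM without a filter on low counts, where edgeR's quasi-dispersion for CXCL8 was 0.698 in place of 3.22. Genes called for the knockdown, 46 in regular medium and 264 after CSM, became 389 and 1178 without the filter, 346 and 1452 with DESeq2, 25 and 435 with only the groups compared, 18 and 133 without the 2 libraries over 15% 7SL, 17 and 59 with limma on TPM, and 11 to 35 and 86 to 175 with a library left out. For CSM in control cells, CSM in knockdown cells and the interaction, no filter gave 62, 175 and 121, DESeq2 6, 52 and 7, and leaving out a library 0. With the replicate block the knockdown counts were 17 and 59 and CXCL8 after CSM had -2.07 (adjusted p = 0.303 by edgeR). Same-numbered libraries correlated at -0.21 to 0.33 in their deviations. In the knockdown comparisons no knockdown library correlated best with the control of its own number. Between media, replicates 1 and 3 of the control after CSM and 2 and 3 of the knockdown after CSM did match their own number best. Whether the numbers pair the samples is unknown here. The pairs past the threshold, 8, became 13 on TPM and 4 to 13 with a library left out.

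Signs of uncalled values that turned were these, on the log2 scale. With other size factors, without the filter and with DESeq2, CCL2 for CSM in control cells gave -0.0035, -0.0062 and -0.0035, and TNFAIP3 for CSM in knockdown cells gave -0.0098 with other factors and -0.011 with DESeq2. With the block, CXCL1 gave -0.074 and 0.19 for the knockdown and 0.26 for the interaction, and NFKBIA 0.057 for CSM in control cells. Without the libraries over 15% 7SL, CXCL1 in regular medium gave -0.041 and NFKBIA for CSM in control cells 0.10. On TPM, where the median of all genes moved to -0.14, 0.39, -0.01, 0.59 and 0.57 in the 5 comparisons, CXCL1 gave -0.14, 0.49 and, for the interaction, 0.63. CCL2 gave -0.59 in regular medium and -0.10 for CSM in control cells, and CXCL2 0.58 after CSM and -0.080 for CSM in control cells. TNFAIP3 gave 0.34 after CSM, -0.17 for CSM in control cells and 0.97 for the interaction, NFKBIA 0.50 after CSM, and CXCL8 0.69 for CSM in knockdown cells and 0.40 for the interaction. With a library left out, the knockdown in regular medium ranged from -0.55 to 0.50 for CXCL1, -1.35 to 0.084 for CXCL3 and -0.71 to 0.61 for CCL2. After CSM it ranged from -0.70 to 0.47 for CXCL1, -0.79 to 0.42 for CXCL2, -0.23 to 0.59 for CCL2, -1.31 to 0.16 for TNFAIP3 and -0.49 to 0.31 for NFKBIA. CSM in control cells ranged from -0.54 to 0.78 for CXCL2, -0.32 to 0.55 for CXCL3, -0.25 to 0.26 for CCL2, -0.84 to 0.76 for TNFAIP3 and -0.60 to 0.23 for NFKBIA. CSM in knockdown cells ranged from -1.06 to 0.10 for CXCL8, -0.34 to 1.00 for CCL2, -0.19 to 0.18 for TNFAIP3 and -0.018 to 0.29 for NFKBIA. The interaction ranged from -0.76 to 0.44 for CXCL1, -0.15 to 1.17 for CXCL2, -0.35 to 1.00 for CCL2, -0.73 to 0.86 for TNFAIP3 and -0.051 to 0.77 for NFKBIA. The cause was not tested.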

Other observations

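The transcripts to which Salmon gave the counts of the CXC genes differed between libraries. Over all libraries 85.5% of the CXCL1 counts fell on the coding transcript, 66.1% of those of CXCL2, 45.4% of those of CXCL3 and 94.5% of those of CXCL8. In replicate 3 of the FASN knockdown from regular medium, the library with the lowest CXCL1, CXCL3, CXCL8 and CCL2, the share was 10.4% for CXCL1 (of 27 counts), 24.6% for CXCL2 (of 89 counts) and 0% for CXCL3 (of 57 counts), with the remainder on models without a defined coding sequence or with a retained intron. For CXCL2 and CXCL3 as for CXCL1 this was the lowest share of the 14 libraries. Retained-intron models held 19.7% of the TNFAIP3 counts and 14.2% of those of NFKBIA, with a range over libraries of 10.2% to 26.8% and 8.96% to 20.2%.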
